A study of Mus musculus with 9 samples.

Results

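The genes described here are 10 markers of simple epithelium: the keratins Krt7, Krt8, Krt18 and Krt19, the claudins Cldn3, Cldn4, Cldn6 and Cldn7, and the adhesion molecules Cdh1 and Epcam. They were taken by symbol from the gene tables of every library, and all 10 were found among the 20287 genes listed in at least 1 library. Their Entrez gene IDs are 110310 (Krt7), 16691 (Krt8), 16668 (Krt18), 16669 (Krt19), 12739 (Cldn3), 12740 (Cldn4), 54419 (Cldn6), 53624 (Cldn7), 12550 (Cdh1) and 17075 (Epcam). All 10 had a count in each of the 9 libraries and passed the filter on low values (mean FPKM 0.5 or more). The RNA-seq data come from the E14 line of embryonic stem cells, derived from mouse strain 129, either wild type (WT) or Hbxip-/- (KO). Hbxip, now called Lamtor5, encodes a subunit of Ragulator, the complex that anchors Rag GTPases on lysosomes. Both genotypes were sampled in pluripotent culture, 96 h after withdrawal of LIF (day 4), the cytokine that sustains self-renewal of mouse stem cells, and as embryoid bodies, which are aggregates of differentiating cells. Each of the 3 cultures held 1 WT and 2 KO libraries, named here KO 1 and KO 2. Neither the clonal origin of the KO libraries, nor their separation into independent cultures, nor the age of the embryoid bodies is given in the labels.

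Keratins are intermediate filament proteins that assemble as obligate pairs of a type II chain (Krt7, Krt8) and a type I chain (Krt18, Krt19). Claudins are membrane proteins that form the strands of tight junctions and set which ions and solutes pass between cells, while Cdh1 (E-cadherin) and Epcam hold neighbouring epithelial cells together. Mouse embryonic stem cells themselves grow as compact colonies held together by E-cadherin, and Krt8 and Krt18 are among the earliest keratins of the mouse embryo.

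Totals ran from 10147277 to 10863845 rounded counts per library, and an observed count of 0 would allow up to 3 counts, or 0.276 to 0.296 CPM. The targeted gene was still counted in the KO libraries, at 29.1 and 31.0 FPKM against 40.7 in WT in pluripotent culture, 15.5 and 16.2 against 38.5 after LIF withdrawal, and 18.3 and 23.0 against 41.8 in embryoid bodies. Its decrease was not called in pluripotent culture, and the files do not show which part of the gene was deleted. The stem cell marker Pou5f1 lay between 648 and 895 FPKM in all 9 libraries, but other stem cell markers differed. Of 8 listed, 1 was called higher and 4 lower in KO in pluripotent culture, against 25.5% and 26.3% of all genes tested. After LIF withdrawal 4 were higher and 1 lower (18.4% and 17.5%), and in embryoid bodies 3 higher and 1 lower (19.4% and 17.8%). After LIF withdrawal Esrrb was at 69.5 FPKM in WT and 182 and 172 in KO, while Nanog was at 214 in WT and 164 in both KO libraries. Among markers of other epithelia, Trp63, Krt5 and Krt14 of surface ectoderm reached at most 0.73 FPKM, but Dlx3 reached 6.84 and Tfap2a 3.92; among those of extraembryonic endoderm, Afp and Ttr reached at most 0.09, but Amn reached 22.3, Dab2 6.56 and Hnf4a 5.69. The cultures are bulk samples, so fewer cells of a type and less RNA per cell cannot be told apart. Intervals on counts cover counting error only.

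Most of the 10 genes were lower in KO than in WT in every culture, and Krt8 and Cldn4 were higher in KO in pluripotent culture alone among the 3 cultures. In pluripotent culture 7 of the 10 were called lower and 2 higher, where called means an adjusted p below 0.05 in edgeR's quasi-likelihood test; among the 13990 genes tested, 26.3% were called lower and 25.5% higher. After LIF withdrawal 9 of 10 were called lower and 0 higher, against 17.5% and 18.4% of all genes. In embryoid bodies 8 of 10 were called lower and 0 higher, against 17.8% and 19.4%. The median log2 fold change of the 10 genes was -1.12, -2.38 and -1.44 in these cultures, in that order, beside -0.01, 0.00 and 0.00 for all genes tested. Both KO libraries lay below the WT library for 7 of 10 genes in pluripotent culture and for 10 of 10 after LIF withdrawal and in embryoid bodies. The share of all genes with both KO libraries below WT is not given here, so these counts cannot be weighed against it. Averaged over the cultures, 7 of 10 were called lower and 0 higher, against 13.8% and 13.3% of all genes; Krt8, Cldn3 and Cldn4 were not called. Each WT group is 1 library, taken to vary as the KO pairs do, so p-values reflect only how much these libraries differ, which may be technical.

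**Figure D1:**
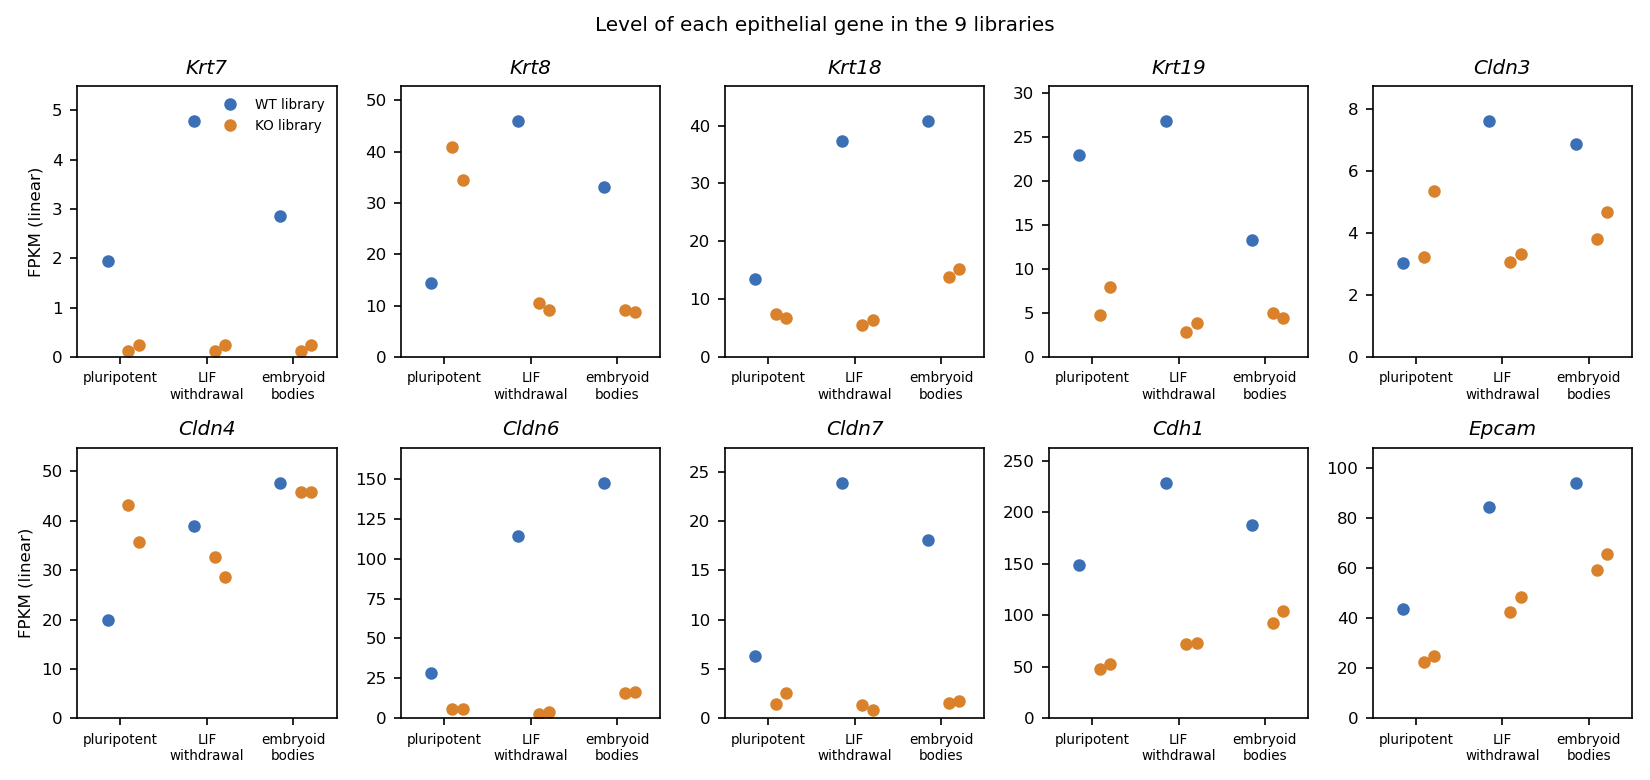
FPKM (linear axis, from 0) of each of the 10 genes in the 9 libraries, with WT libraries in blue and KO libraries in orange; each point is 1 library. Cldn6 and Cldn7 stood high in WT after LIF withdrawal and in embryoid bodies and low in every KO library, while Krt8 was highest in KO within pluripotent culture.

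**Figure D2:**
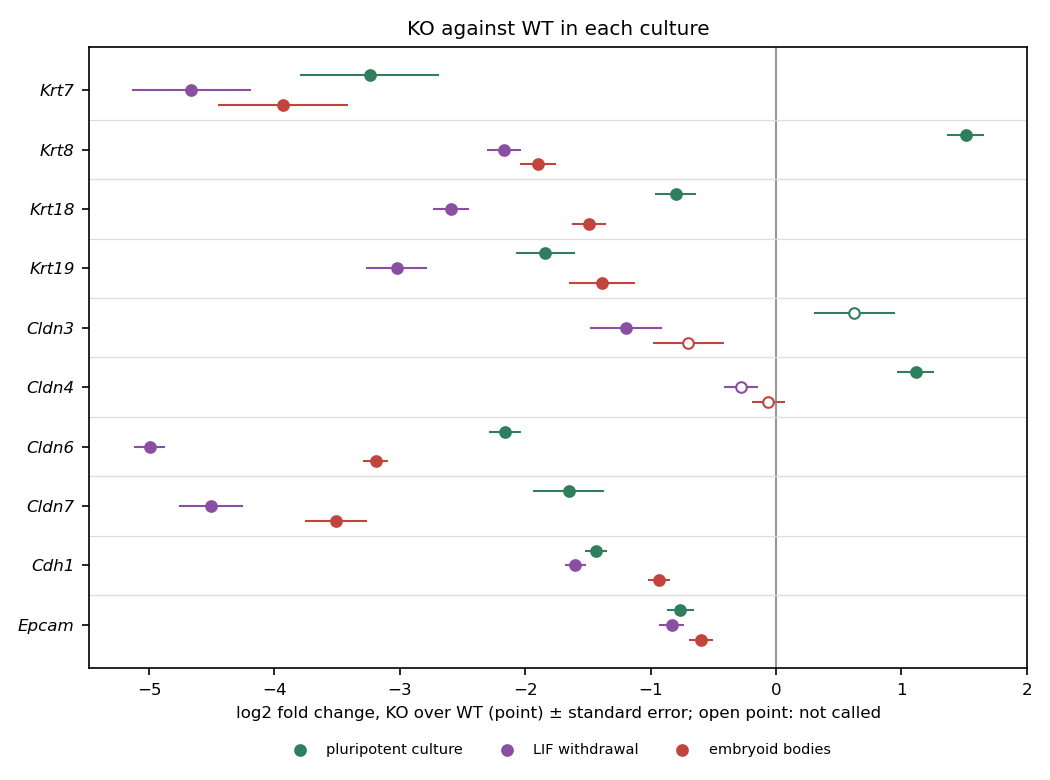
Log2 fold change of KO over WT with its standard error for each gene in pluripotent culture (green), after LIF withdrawal (purple) and in embryoid bodies (red); filled points were called and open points were not. Krt8 changed sign between pluripotent culture (1.51) and LIF withdrawal (-2.17), and the largest decrease among the 10 genes was that of Cldn6 after LIF withdrawal (-5.0).

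Krt7, a type II keratin of simple and ductal epithelia, was the least abundant of the keratins and was close to the counting limit in KO. Its level was 1.95 FPKM in WT and 0.12 and 0.25 in KO in pluripotent culture, 4.78 against 0.12 and 0.23 after LIF withdrawal, and 2.85 against 0.12 and 0.24 in embryoid bodies. WT exceeded every KO library in each culture, and the KO level hardly differed between cultures. These KO levels rest on 2 and 4 counts per library in each culture, against 33, 81 and 47 counts in WT. The ratio of WT to KO, scaled for library totals, was 10.6 (95% exact interval 4.4 to 31.0) in pluripotent culture, 27.5 (12.1 to 77.1) after LIF withdrawal and 15.8 (6.75 to 45.3) in embryoid bodies. All 3 decreases were called, with adjusted p of 0.000397, 1.21e-05 and 9.51e-05.

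Krt8, the other type II keratin and the usual partner of Krt18, was the 1 gene of the 10 that was called in both directions, higher in KO in pluripotent culture and lower in the other cultures. In Cldn3 and Cldn4 both KO libraries also lay above WT in the first and below it in the others, without calls on both sides. In pluripotent culture its level was 14.4 FPKM in WT and 40.8 and 34.4 in KO. After LIF withdrawal it was 45.9 in WT and 10.5 and 9.11 in KO, and in embryoid bodies 33.1 in WT and 9.18 and 8.64 in KO. The KO libraries thus lay above WT in pluripotent culture and below it in the other two, with no overlap. Krt8 was 2.86-fold higher in KO in pluripotent culture (log2 fold change 1.51 ± 0.15 SE, adjusted p 5.30e-06). It was 4.49-fold lower after LIF withdrawal (-2.17 ± 0.14, adjusted p 3.35e-07) and 3.73-fold lower in embryoid bodies (-1.90 ± 0.14, adjusted p 1.37e-06). The average over cultures, -1.18 ± 0.57, was not called (adjusted p 0.164). Without the WT library of pluripotent culture it was -2.04 and called (adjusted p 7.72e-07). The average then rests on LIF withdrawal and embryoid bodies alone, and it was -2.03 without all libraries of pluripotent culture.

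Krt18, the type I partner, did not share the increase of Krt8 in pluripotent culture. Its level there was 13.4 FPKM in WT and 7.36 and 6.80 in KO, a 1.74-fold decrease (-0.80 ± 0.16, adjusted p 0.00137). After LIF withdrawal it was 37.3 in WT and 5.56 and 6.31 in KO, 6.02-fold lower (-2.59 ± 0.15, adjusted p 1.45e-07). In embryoid bodies it was 40.8 in WT and 13.9 and 15.2 in KO, 2.81-fold lower (-1.49 ± 0.13, adjusted p 5.09e-06). WT exceeded both KO libraries in each culture.

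FPKM is scaled by transcript length, so the partners can be compared within a library. The ratio of Krt8 to Krt18 was 1.07 in WT and 5.55 and 5.06 in KO in pluripotent culture. It was 1.23 in WT and 1.89 and 1.44 in KO after LIF withdrawal, and 0.81 in WT and 0.66 and 0.57 in KO in embryoid bodies. The KO libraries of pluripotent culture therefore stood apart from the other 7 libraries, in which the ratio ran from 0.57 to 1.89. Within the keratins described here, summed type II over type I (Krt7 and Krt8 over Krt18 and Krt19) was 0.45 in WT and 3.38 and 2.35 in KO in pluripotent culture. It was 0.45 to 1.26 in the other 6 libraries. Other type I keratins are left out of these sums. Among those, Krt42 was at 8.52 FPKM in WT and 41.8 and 35.9 in KO in pluripotent culture. The ratio of all type II to all type I chains is therefore not given. These ratios are RNA levels and say nothing of the proteins' amounts.

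Krt19, a short type I keratin that lacks the usual tail domain, was lower in KO in all 3 cultures. Its level was 22.9 FPKM in WT and 4.75 and 7.96 in KO in pluripotent culture, 26.7 against 2.85 and 3.79 after LIF withdrawal, and 13.2 against 5.0 and 4.36 in embryoid bodies. No KO library reached its WT library. The decreases were 3.58-fold (-1.84 ± 0.23, adjusted p 4.21e-05), 8.15-fold (-3.03 ± 0.25, adjusted p 1.97e-06) and 2.62-fold (-1.39 ± 0.26, adjusted p 0.00143). In WT pluripotent culture and in no other library except KO 2 of that culture, Krt19 exceeded Krt18, with ratios of 1.70 and 1.17.

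The promoters of Krt8 and Krt18, neighbouring genes on chromosome 15 of the RefSeq annotation of GRCm38.p6, are shown because the pair differed in direction. Each stretch runs from 250 bases before to 50 bases after the start site, from RefSeq, with capitals marking the E-box CACCTG or its reverse complement CAGGTG. That E-box is known as a binding sequence of the SNAIL and ZEB families of repressors, which act on Cdh1 among other epithelial genes. Krt8 lies on the minus strand at chr15:102004293-102004592 and holds 1 E-box, 111 bases before its start site. Krt18 lies on the plus strand at chr15:102027966-102028265 and holds 1, 214 bases before its start site.
Krt8: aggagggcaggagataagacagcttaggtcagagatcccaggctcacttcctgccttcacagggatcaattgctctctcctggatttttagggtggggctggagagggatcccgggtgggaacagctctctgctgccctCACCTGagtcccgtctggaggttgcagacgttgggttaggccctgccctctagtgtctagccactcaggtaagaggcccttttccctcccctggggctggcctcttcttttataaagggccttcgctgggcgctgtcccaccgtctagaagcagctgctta
Krt18: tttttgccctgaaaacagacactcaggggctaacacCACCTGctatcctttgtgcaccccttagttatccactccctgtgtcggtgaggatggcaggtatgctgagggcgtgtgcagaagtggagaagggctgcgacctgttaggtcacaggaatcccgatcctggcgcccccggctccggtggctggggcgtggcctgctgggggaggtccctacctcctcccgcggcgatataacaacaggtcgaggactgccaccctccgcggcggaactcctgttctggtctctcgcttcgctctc

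**Figure D3:**
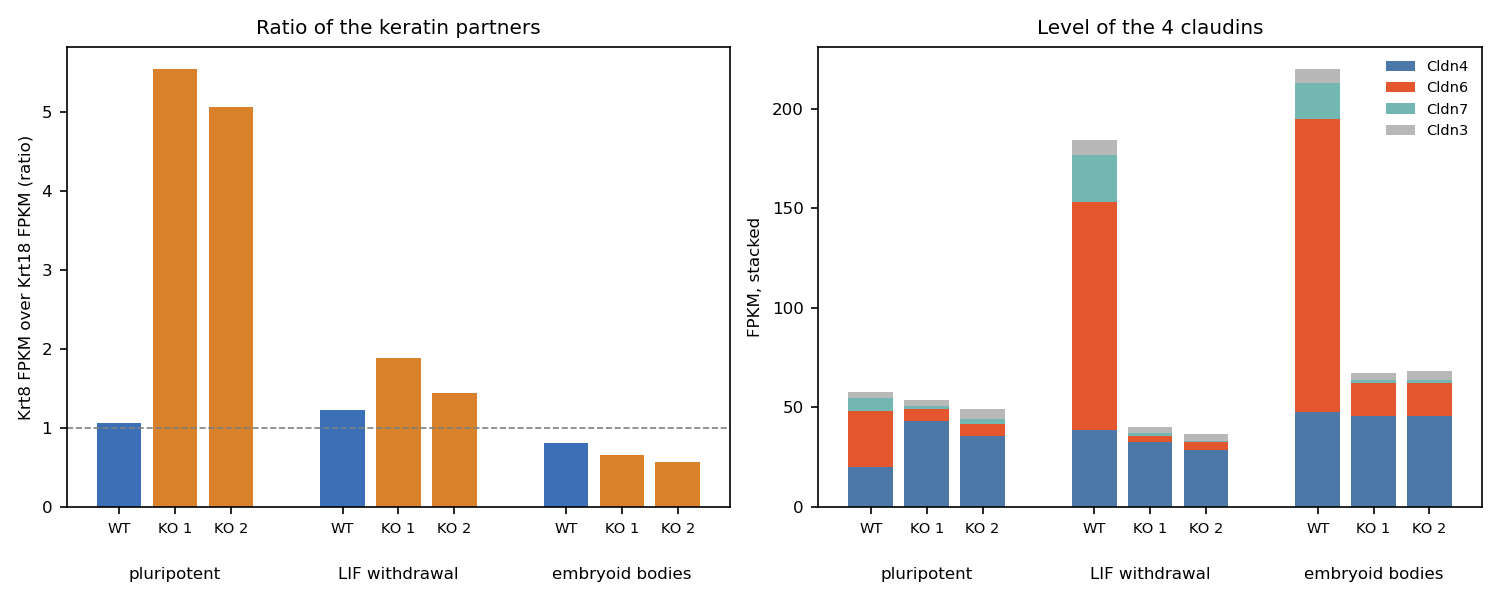
Left, FPKM of Krt8 over FPKM of Krt18 in each library, with a dashed line at a ratio of 1; right, FPKM of Cldn4, Cldn6, Cldn7 and Cldn3 stacked in each library. The Krt8 to Krt18 ratio was above 5 only in the KO libraries of pluripotent culture (5.55 and 5.06), and Cldn6 made up 49.3% to 67.0% of the 4 claudins in WT and 7.38% to 23.9% in KO.

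Cldn6, a claudin of embryonic epithelia, showed the largest decrease of the 10 genes after LIF withdrawal. Its level was 28.4 FPKM in WT and 5.74 and 5.92 in KO in pluripotent culture, 114 against 2.95 and 3.90 after LIF withdrawal, and 147 against 16.1 and 16.2 in embryoid bodies. All 6 KO libraries lay below the lowest WT library. The decreases were 4.48-fold (-2.16 ± 0.13, adjusted p 1.23e-07), 31.9-fold (-5.0 ± 0.12, adjusted p 2.80e-10) and 9.14-fold (-3.19 ± 0.10, adjusted p 1.73e-09).

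Cldn7, a claudin that also binds Epcam at the lateral membrane, followed the same order of cultures. It stood at 6.32 FPKM in WT and 1.49 and 2.53 in KO in pluripotent culture, 23.9 against 1.31 and 0.84 after LIF withdrawal, and 18.1 against 1.60 and 1.74 in embryoid bodies. Again every KO library lay below every WT library. It was 3.15-fold lower in pluripotent culture (-1.65 ± 0.28, adjusted p 0.000396), 22.7-fold lower after LIF withdrawal (-4.51 ± 0.26, adjusted p 1.56e-07) and 11.4-fold lower in embryoid bodies (-3.51 ± 0.25, adjusted p 8.82e-07).

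Cldn4, a claudin that tightens the barrier in many epithelia, was called lower in none of the 3 cultures. In pluripotent culture it was 19.9 FPKM in WT and 43.3 and 35.7 in KO, 2.17-fold higher in KO (1.12 ± 0.15, adjusted p 5.43e-05). After LIF withdrawal it was 38.8 in WT and 32.7 and 28.6 in KO, a log2 difference of -0.28 ± 0.13 that was not called (adjusted p 0.124). In embryoid bodies it was 47.7 in WT and 45.9 in both KO libraries, with a difference of -0.06 ± 0.13 (adjusted p 0.749). Over the cultures its log2 difference of 0.21 ± 0.23 was not called (adjusted p 0.545) and turned to -0.17 without the WT library of pluripotent culture. That value rests on the other cultures alone.

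Cldn3, encoded beside Cldn4 on chromosome 5 of GRCm38.p6, was the least abundant of the 4 claudins in WT. Its level was 3.02 FPKM in WT and 3.24 and 5.35 in KO in pluripotent culture, and the difference of 0.63 ± 0.33 was not called (adjusted p 0.127). Without KO 1 of that culture the difference was 0.93 and called (adjusted p 0.0347). After LIF withdrawal it was at 7.61 in WT and 3.05 and 3.32 in KO, 2.29-fold lower (-1.19 ± 0.29, adjusted p 0.00605), and under DESeq2 this decrease was not called (adjusted p 0.0946). In embryoid bodies it was at 6.88 in WT and 3.82 and 4.68 in KO, a difference of -0.70 ± 0.28 that was not called (adjusted p 0.0717). That difference passed the threshold when KO 1 or KO 2 of pluripotent culture was left out (adjusted p 0.0461 and 0.0492). Its average over cultures, -0.50 ± 0.32 (adjusted p 0.282), was called at -0.95 without the WT library of pluripotent culture (adjusted p 0.00559). The latter value rests on the other cultures alone.

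The leading claudin therefore differed between genotypes in all 3 cultures. Cldn6 made up 49.3%, 61.9% and 67.0% of the summed FPKM of the 4 claudins in WT in pluripotent culture, LIF withdrawal and embryoid bodies, in that order. In KO it made up 10.7% and 12.0%, 7.38% and 10.6%, and 23.9% and 23.7%. Cldn4 made up 34.5%, 21.0% and 21.7% in WT and between 67.0% and 81.7% in the 6 KO libraries. The summed level itself was 57.6 FPKM in WT and 53.7 and 49.5 in KO in pluripotent culture, but 184 against 40.0 and 36.7 after LIF withdrawal and 220.1 against 67.4 and 68.5 in embryoid bodies.

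The promoters of Cldn4, which was called higher in KO in pluripotent culture and not called in the other cultures, and of Cldn6, whose decrease was the largest of the claudins after LIF withdrawal, are shown side by side, in the same format. Cldn4 lies on the minus strand at chr5:134946885-134947184 and holds 2 E-boxes, 14 bases before and 11 bases after its start site. Cldn6 lies on the plus strand at chr17:23679115-23679414 and also holds 2, 93 bases before and 40 bases after its start site.
Cldn4: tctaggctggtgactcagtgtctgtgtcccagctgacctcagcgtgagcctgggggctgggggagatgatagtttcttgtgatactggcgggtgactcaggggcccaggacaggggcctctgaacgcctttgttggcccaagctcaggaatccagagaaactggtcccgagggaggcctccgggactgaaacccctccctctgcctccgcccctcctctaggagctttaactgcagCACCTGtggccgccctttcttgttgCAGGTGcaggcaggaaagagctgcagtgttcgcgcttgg
Cldn6: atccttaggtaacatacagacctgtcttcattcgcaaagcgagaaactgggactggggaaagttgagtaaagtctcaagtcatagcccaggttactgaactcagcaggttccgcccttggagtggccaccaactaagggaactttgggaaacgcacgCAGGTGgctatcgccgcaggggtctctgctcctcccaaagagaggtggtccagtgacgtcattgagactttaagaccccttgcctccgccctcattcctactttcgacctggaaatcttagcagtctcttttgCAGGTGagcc

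Promoter windows were found for 8 of the 10 genes, all but Krt19 and Cdh1, with 2 start sites for Cldn7. The E-box CACCTG, searched on both strands, occurred in at least 1 window of all 8, against 22.6% of the 27025 genes in the table and 20.2% of its 32851 windows of 300 bases. Among the 8 searched, it was present in Krt7, Krt18, Cldn6, Cldn7 and Epcam, called lower in KO in all 3 cultures, as well as in Krt8, Cldn3 and Cldn4. The GC content of the 9 windows ran from 52.0% to 66.3%, and the share of windows with an E-box was not compared at matched GC content. The other motifs were searched in the same way: the Grainyhead-like sequence AACCNGTT occurred in 0 of 8 (2.09% of all windows), the AP-2 sequence GCCNNNGGC in 3 of 8 (16.6%) and the AP-1 sequence TGANTCA in 1 of 8, Cldn4 (7.81%). For these other motifs the percentages are shares of single windows, while the counts are genes with a match in any of their windows. The share of all genes is not given for them. All motif counts are matches of letters in a window and not measured binding sites.

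Cdh1, the classical cadherin of adherens junctions, was the most abundant of the 10 genes in all 9 libraries. Its level was 149 FPKM in WT and 48.3 and 52.7 in KO in pluripotent culture, 229 against 71.7 and 72.9 after LIF withdrawal, and 188 against 92.6 and 104 in embryoid bodies. The highest KO library still lay below the lowest WT library. The decreases were 2.71-fold (-1.44 ± 0.09, adjusted p 1.48e-07), 3.03-fold (-1.60 ± 0.09, adjusted p 1.11e-07) and 1.91-fold (-0.93 ± 0.09, adjusted p 7.00e-06).

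Epcam, a calcium-independent adhesion molecule of epithelial and stem cells, had the smallest of the decreases that were called in every culture. Its level was 43.6 FPKM in WT and 22.3 and 24.9 in KO in pluripotent culture, 84.4 against 42.6 and 48.3 after LIF withdrawal, and 94.1 against 59.4 and 65.6 in embryoid bodies. WT was above both KO libraries within each culture, while both KO libraries of embryoid bodies and KO 2 of LIF withdrawal exceeded the WT library of pluripotent culture. The decreases were 1.70-fold (-0.76 ± 0.11, adjusted p 8.60e-05), 1.78-fold (-0.83 ± 0.10, adjusted p 3.59e-05) and 1.51-fold (-0.59 ± 0.10, adjusted p 0.000454).

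The next comparison follows each genotype from pluripotent culture into differentiation. In WT, 9 of the 10 genes were higher and 0 lower after LIF withdrawal, against 11.6% called higher and 8.9% called lower among all genes, and the median log2 fold change of the 10 was 1.34. The largest increases were those of Cldn6 (2.03 ± 0.12, adjusted p 4.65e-07), Cldn7 (1.94 ± 0.25, adjusted p 0.000185) and Krt8 (1.70 ± 0.16, adjusted p 2.07e-05). Krt19 was the exception, at 0.25 ± 0.24 (adjusted p 0.507). The increase of Krt7 (1.32 ± 0.40, adjusted p 0.0365) was not called under DESeq2 (adjusted p 0.56) or without KO 2 of the embryoid bodies (adjusted p 0.0501). That of Cldn3 (1.36 ± 0.35, adjusted p 0.0156) was not called under DESeq2 either (adjusted p 0.172), and neither was called with limma on log2(FPKM + 0.1) (adjusted p 0.205 and 0.0568). These are comparisons of 1 WT library with 1 WT library, with the spread taken from the KO pairs.

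In KO, 2 of 10 were higher after LIF withdrawal, Cdh1 (0.48 ± 0.08, adjusted p 0.000157) and Epcam (0.91 ± 0.09, adjusted p 3.50e-06), and 5 of 10 were lower, against 30.2% called higher and 29.0% called lower among all genes. Krt8 fell most, by 1.98 ± 0.12 on the log2 scale (adjusted p 8.57e-08). Cldn6 (-0.80 ± 0.16, adjusted p 0.00083), Krt19 (-0.94 ± 0.26, adjusted p 0.00735), Cldn4 (-0.40 ± 0.11, adjusted p 0.00744) and Cldn7 (-0.91 ± 0.33, adjusted p 0.0329) were also lower. Of these, the call was lost for Krt19 without KO 2 of pluripotent culture or KO 1 of LIF withdrawal (adjusted p 0.119 and 0.0649). It was lost for Cldn4 without KO 1 of pluripotent culture or KO 2 of LIF withdrawal (0.0951 and 0.076) and for Cldn7 without KO 2 of either culture (0.222 and 0.205), under DESeq2 (0.117) and under limma (0.0571 and 0.053). Cldn3 (-0.46 ± 0.26) was called only without KO 1 of pluripotent culture (-0.77, adjusted p 0.0321), and Krt7 and Krt18 were not called.

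The difference between these responses was tested directly, as the KO response minus the WT response. It was called for 7 of 10 genes, all of them lower, against 14.9% called lower and 17.5% called higher among all genes. Krt8 led with -3.68 ± 0.20 (adjusted p 6.40e-07), followed by Cldn7 at -2.85 ± 0.42 (adjusted p 0.000362) and Cldn6 at -2.83 ± 0.20 (adjusted p 2.37e-06). Cldn3 (-1.82 ± 0.43, adjusted p 0.00719), Krt18 (-1.79 ± 0.22, adjusted p 0.000135), Cldn4 (-1.40 ± 0.20, adjusted p 0.000292) and Krt19 (-1.19 ± 0.35, adjusted p 0.0223) completed the group. The call for Krt19 was lost without KO 2 of pluripotent culture (adjusted p 0.0982) and without KO 1 of LIF withdrawal (adjusted p 0.0734). DESeq2 called 5 of the 10, without Krt19 (adjusted p 0.119) and Cldn3 (adjusted p 0.0754), and limma did not call Krt19 with either pseudocount (adjusted p 0.107 and 0.119). Cdh1 (-0.16 ± 0.13, adjusted p 0.365) and Epcam (-0.07 ± 0.15, adjusted p 0.753), which rose in both genotypes, were not called, nor was Krt7 (-1.42 ± 0.90, adjusted p 0.252), whose KO level rests on few counts.

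**Figure D4:**
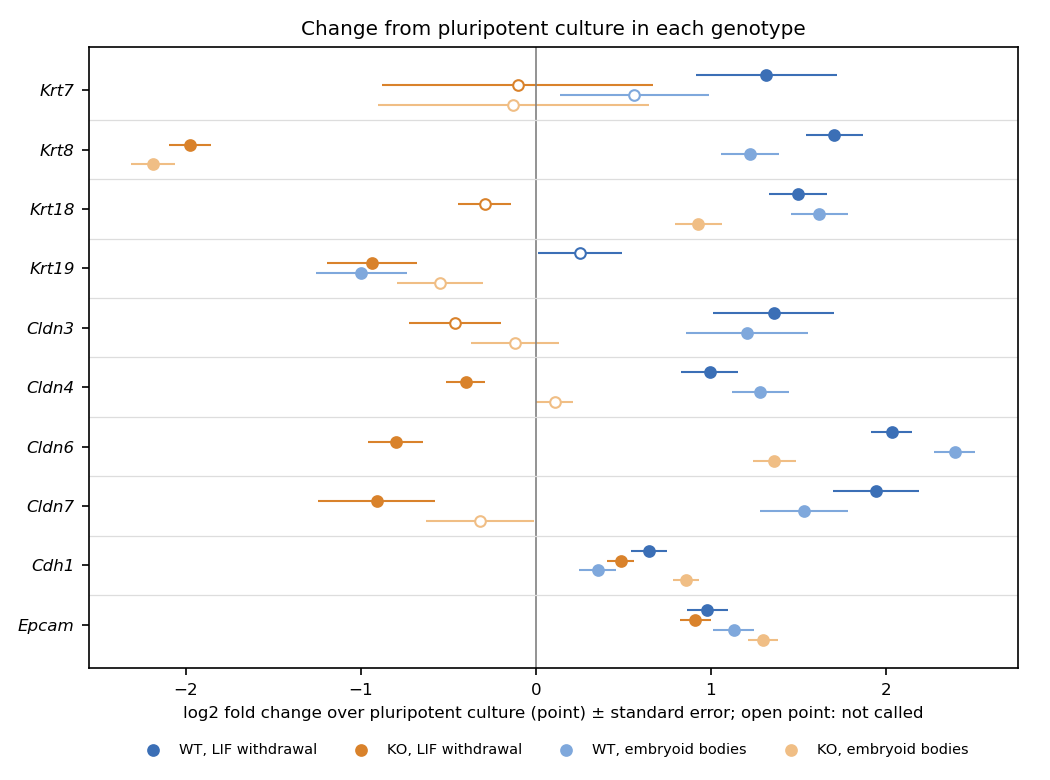
Log2 fold change over pluripotent culture with its standard error for each gene in WT (blue) and KO (orange), after LIF withdrawal (dark) and in embryoid bodies (light); filled points were called and open points were not. For Krt8 the 2 WT points (1.70 and 1.23) lie right of 0 and the 2 KO points (-1.98 and -2.19) left of it, while all 4 points of Cdh1 and of Epcam lie right of 0.

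Embryoid bodies were compared with pluripotent culture in the same way and share its libraries. In WT, 8 of 10 genes were higher and 1 lower, against 19.7% and 18.9% of all genes. Cldn6 rose most (2.39 ± 0.12, adjusted p 6.70e-08), followed by Krt18 (1.62 ± 0.16, adjusted p 1.62e-05) and Cldn7 (1.53 ± 0.25, adjusted p 0.000552). Krt19 was lower (-1.0 ± 0.26, adjusted p 0.00973), not called under DESeq2 (adjusted p 0.0857) or limma (adjusted p 0.106 and 0.15), and Krt7 was not called (0.56 ± 0.42, adjusted p 0.32). Of the increases, that of Cldn3 was not called under DESeq2 (adjusted p 0.157), nor that of Cdh1 with limma on log2(FPKM + 1) or log2(FPKM + 0.1) (adjusted p 0.0525 and 0.0588). In KO, 4 of 10 were higher and 1 lower, against 31.0% and 30.0% of all genes. Cldn6 (1.36 ± 0.12, adjusted p 1.62e-06), Epcam (1.30 ± 0.09, adjusted p 1.84e-07), Krt18 (0.93 ± 0.14, adjusted p 8.89e-05) and Cdh1 (0.86 ± 0.08, adjusted p 1.61e-06) rose, and Krt8 fell by 2.19 ± 0.12 (adjusted p 5.30e-08). Krt19 (-0.55 ± 0.24, adjusted p 0.0694) was called lower only without KO 1 of pluripotent culture among the libraries left out (-0.89, adjusted p 0.00688).

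Tested as a difference, the embryoid body response was lower in KO for 6 of 10 genes and higher for 1, against 19.5% and 22.4% of all genes. Krt8 again led (-3.41 ± 0.21, adjusted p 7.96e-07), ahead of Cldn7 (-1.85 ± 0.40, adjusted p 0.00297), Cldn3 (-1.33 ± 0.43, adjusted p 0.0272), Cldn4 (-1.18 ± 0.19, adjusted p 0.000551), Cldn6 (-1.03 ± 0.17, adjusted p 0.000582) and Krt18 (-0.69 ± 0.21, adjusted p 0.0218). Cdh1 was the 1 gene whose difference was called higher in KO (0.50 ± 0.13, adjusted p 0.00792). Those of Krt19 (0.45 ± 0.36, adjusted p 0.341) and Epcam (0.17 ± 0.14, adjusted p 0.379) were above 0 and not called. The call for Krt18 was lost without KO 1 of pluripotent culture or KO 1 of the embryoid bodies (adjusted p 0.0712 and 0.0582). The call for Cldn3 was lost without KO 2 of pluripotent culture or KO 1 of the embryoid bodies (adjusted p 0.102 and 0.0806). DESeq2 called 5 of the 10, without Krt18 (adjusted p 0.184) and Cldn3 (adjusted p 0.198), and limma did not call Cldn3 with either pseudocount (adjusted p 0.0698 and 0.0815).

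Genes that work with the 10 were taken from lists and are given by their counts, to be read against the shares of all genes: 26.3% called lower and 25.5% higher in pluripotent culture, 17.5% and 18.4% after LIF withdrawal, and 17.8% and 19.4% in embryoid bodies. Of 16 tight junction partners, 11 were called lower and 0 higher in KO in pluripotent culture, 9 lower and 2 higher after LIF withdrawal, and 9 lower and 2 higher in embryoid bodies. The difference between responses, KO minus WT, was called higher for 6 of the 16 and lower for 3 after LIF withdrawal (17.5% and 14.9% of all genes). In embryoid bodies it was higher for 8 and lower for 1 (22.4% and 19.5%). Ocln (occludin), a strand protein beside the claudins, was at 3.76 FPKM in WT and 0.36 and 0.40 in KO in pluripotent culture, where it was lower, with a log2 fold change of -3.17 ± 0.26 (adjusted p 1.28e-06). Its decrease was smaller after LIF withdrawal (-2.05 ± 0.19, adjusted p 4.81e-06) and in embryoid bodies (-1.36 ± 0.21, adjusted p 0.000349). Crb3, an apical polarity protein, was at 20.3 in WT and 1.71 and 2.5 in KO after LIF withdrawal (-3.21 ± 0.21, adjusted p 4.72e-07). Its level was 8.99 in WT and 2.87 and 3.27 in KO in pluripotent culture, and 28.2 against 8.08 and 8.24 in embryoid bodies. Cgnl1 and Prkci, chosen after their values were seen, went the other way after LIF withdrawal. Cgnl1 was at 9.08 in WT and 19.25 and 23.46 in KO, and Prkci at 32.7 against 59.4 and 59.5. The scaffold Tjp1 (ZO-1) was called lower in pluripotent culture (-0.88 ± 0.08, adjusted p 4.63e-06) but differed by -0.03 ± 0.08 after LIF withdrawal (adjusted p 0.84). Only 3 of 17 other claudins passed the filter, and Cldn9, the neighbour of Cldn6 on chromosome 17, was lower, with log2 fold changes of -1.36 ± 0.54, -1.94 ± 0.49 and -1.76 ± 0.52 in the 3 cultures (adjusted p 0.0499, 0.00832 and 0.0191).

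The desmosome, the junction to which keratin filaments attach, had 6 of 9 tested genes lower and 1 higher in KO in pluripotent culture, 8 lower and 0 higher after LIF withdrawal, and 7 lower and 1 higher in embryoid bodies. Dsp (desmoplakin), which links keratins to the junction, was lower, with log2 fold changes of -2.49 ± 0.14, -1.62 ± 0.11 and -1.36 ± 0.11 in these cultures (adjusted p 6.98e-08, 4.26e-07 and 2.26e-06). Perp was lower, with log2 fold changes of -0.78 ± 0.17, -3.53 ± 0.20 and -2.80 ± 0.19 (adjusted p 0.00182, 1.45e-07 and 6.05e-07). Of 12 adherens junction partners of Cdh1, 5 were higher and 4 lower in pluripotent culture, where 25.5% and 26.3% of all genes were, 4 higher and 2 lower after LIF withdrawal (18.4% and 17.5%), and 3 higher and 4 lower in embryoid bodies (19.4% and 17.8%). Ctnna1 (alpha-catenin), which couples the cadherin complex to actin, was higher, with log2 fold changes of 0.86 ± 0.09, 0.51 ± 0.09 and 0.37 ± 0.08 (adjusted p 6.63e-06, 0.000547 and 0.00477), in the libraries where Cdh1 was lower. Ctnnb1 (beta-catenin) differed by 0.20 ± 0.08, 0.29 ± 0.08 and 0.22 ± 0.08 and was called only after LIF withdrawal (adjusted p 0.0632, 0.019 and 0.0537). Cdh3 (P-cadherin), the gene next to Cdh1, was lower, with log2 fold changes of -3.77 ± 0.19, -2.86 ± 0.17 and -1.45 ± 0.16 (adjusted p 4.80e-08, 1.91e-07 and 1.99e-05). Its response was higher in KO than in WT, by 0.91 ± 0.28 after LIF withdrawal and 2.32 ± 0.26 in embryoid bodies (adjusted p 0.0258 and 4.42e-05). Of the 12 partners 2 were called higher and 4 lower for the first difference (17.5% and 14.9% of all genes). For the second 2 were higher and 5 lower (22.4% and 19.5%).

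Among 18 tested epithelial regulators and partners, 8 were lower and 2 higher in KO in pluripotent culture, 14 lower and 1 higher after LIF withdrawal, and 13 lower and 1 higher in embryoid bodies. Esrp1, a splicing regulator of epithelial cells, was at 8.12 FPKM in WT and 0.10 and 0.20 in KO in pluripotent culture, 23.4 against 1.23 and 0.90 after LIF withdrawal, and 21.5 against 1.12 and 1.37 in embryoid bodies. Its decrease was called in all 3 cultures (-5.65 ± 0.27, -4.39 ± 0.18 and -4.12 ± 0.17, adjusted p 3.39e-08, 1.17e-08 and 1.65e-08). Grhl2, a transcription factor known to activate Cdh1 and claudin genes, was at 4.18 in WT and 0.33 and 0.57 in KO in pluripotent culture, 15.3 against 5.52 and 5.19 after LIF withdrawal, and 15.3 against 8.03 and 11.2 in embryoid bodies. It was lower, with log2 fold changes of -3.10 ± 0.29, -1.45 ± 0.17 and -0.68 ± 0.17 (adjusted p 3.81e-06, 3.70e-05 and 0.00682). Both were lower in pluripotent culture too, where Krt8 and Cldn4 were higher. Grhl2 rose more from that culture in KO than in WT. The difference between responses was 1.64 ± 0.35 after LIF withdrawal (adjusted p 0.00406) and 2.42 ± 0.34 in embryoid bodies (adjusted p 0.000209). Among the 18 genes that difference was called higher for 3 and lower for 9 after LIF withdrawal (17.5% and 14.9% of all genes). In embryoid bodies it was higher for 3 and lower for 8 (22.4% and 19.5%).

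Of 9 tested mesenchymal genes, 6 were higher and 1 lower in KO in pluripotent culture, 5 higher and 2 lower after LIF withdrawal, and 4 higher and 3 lower in embryoid bodies. Zeb1, a repressor of Cdh1, was at 3.0 FPKM in WT and 5.58 and 5.72 in KO in pluripotent culture, 1.01 against 9.50 and 8.98 after LIF withdrawal, and 0.83 against 7.12 and 7.30 in embryoid bodies. It was higher, with log2 fold changes of 1.04 ± 0.13, 3.25 ± 0.16 and 3.10 ± 0.17 (adjusted p 4.96e-05, 5.72e-08 and 1.31e-07). Snai1, another repressor of Cdh1, was higher in pluripotent culture (1.72 ± 0.21, adjusted p 3.84e-05), not called after LIF withdrawal (-0.38 ± 0.21, adjusted p 0.177) and lower in embryoid bodies (-0.57 ± 0.20, adjusted p 0.0396). Cdh2 (N-cadherin), listed as a mesenchymal marker, was lower in all 3 cultures (-0.84 ± 0.23, -1.39 ± 0.20 and -2.52 ± 0.23, adjusted p 0.00778, 0.000206 and 5.50e-06). The part of these regulators in the levels of the 10 genes was not tested.

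**Figure D5:**
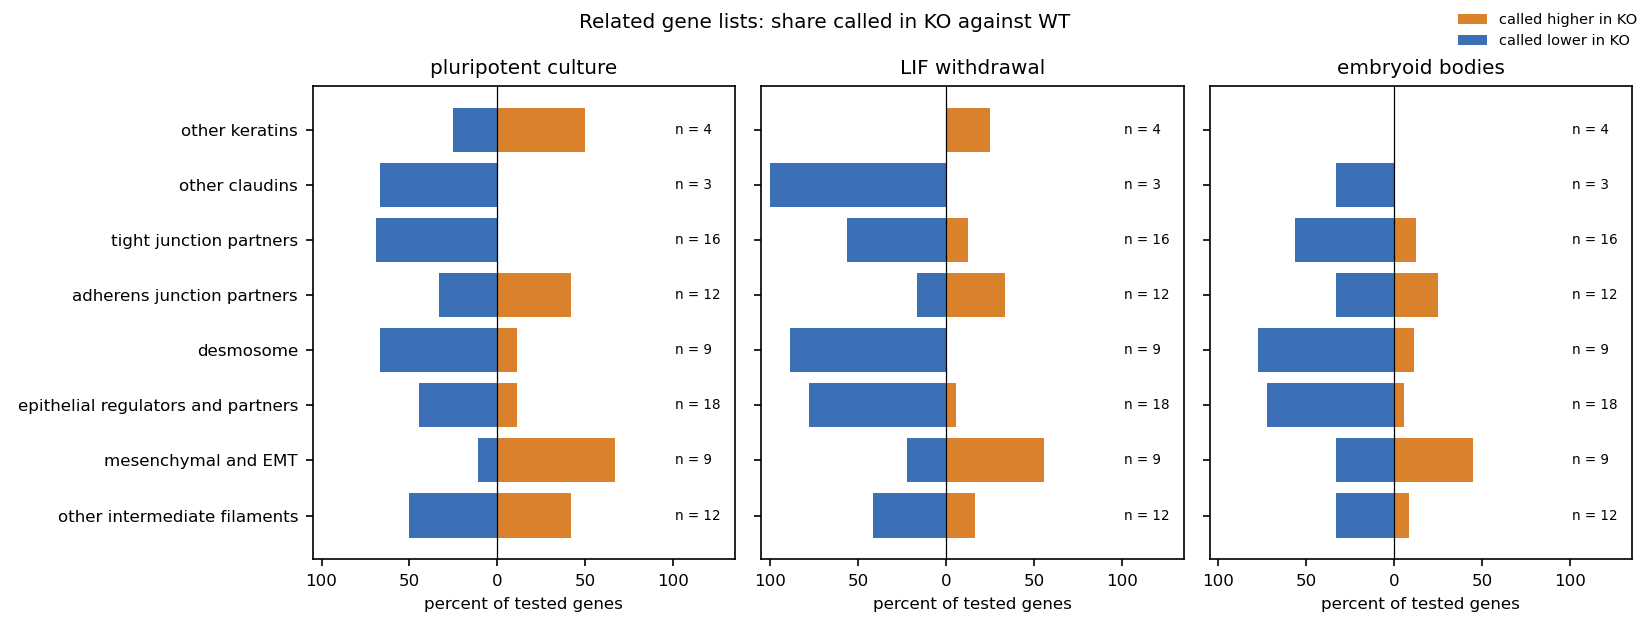
Percent of the tested genes of each related list that were called higher (orange, right of 0) or lower (blue, left of 0) in KO against WT in the 3 cultures; n is the number of tested genes in the list. In pluripotent culture 6 of 9 desmosome genes were called lower and 1 higher, while 4 of 12 adherens junction partners were called lower and 5 higher. Among all genes tested there, 26.3% were called lower and 25.5% higher.

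Filament genes outside the 10 were called in both directions. Only 4 of 16 other keratins passed the filter, with 2 higher and 1 lower in KO in pluripotent culture, 1 higher and 0 lower after LIF withdrawal, and 0 in either direction in embryoid bodies. Krt42, a type I keratin, was at 8.52 FPKM in WT and 41.8 and 35.9 in KO in pluripotent culture (2.31 ± 0.20, adjusted p 2.01e-06). The rise of Krt8 there was thus accompanied by a rise of this type I chain and by decreases of Krt18 and Krt19. Krt42 did not follow Krt8 elsewhere. It was also higher in KO after LIF withdrawal (1.37 ± 0.31, adjusted p 0.00393), where Krt8 was lower, and Krt42 was not called in embryoid bodies (0.61 ± 0.33, adjusted p 0.161). Eppk1 (epiplakin), a keratin-binding protein, was lower, with log2 fold changes of -3.31 ± 0.19, -3.99 ± 0.19 and -2.01 ± 0.17 (adjusted p 1.00e-07, 4.75e-08 and 3.62e-06). A list of 12 genes held other intermediate filament genes together with Eppk1 and Plec, whose proteins bind filaments and do not form them. Of these 12 genes, 6 were lower and 5 higher in pluripotent culture, 5 lower and 2 higher after LIF withdrawal, and 4 lower and 1 higher in embryoid bodies. Their median log2 fold change was -0.23, -0.33 and -0.26 in these cultures. Vim (vimentin), the filament protein of mesenchymal cells and also of cultured stem cells, was higher in all 3 (1.45 ± 0.11, 1.25 ± 0.12 and 1.48 ± 0.13, adjusted p 1.02e-06, 6.44e-06 and 3.32e-06).

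Markers of cell types that express these keratins and claudins moved with some of the differences. The summed FPKM of 12 trophoblast markers, Krt7 among them, was 37.6 in WT and 34.2 to 35.5 in KO in pluripotent culture, 52.3 against 27.2 to 30.9 after LIF withdrawal, and 74.9 against 36.9 to 37.8 in embryoid bodies. The defining marker Cdx2 was at 3.82 in WT after LIF withdrawal and 1.12 in WT embryoid bodies, and at most 0.09 in KO, while Elf5 was at most 0.32 in every library. Eomes was the largest term of these 2 WT sums, at 21.6 and 35.0. Tead4 went the other way, at 1.79 in WT and 5.24 and 4.51 in KO after LIF withdrawal. Of 10 tested markers, 1 was called higher and 6 lower after LIF withdrawal (18.4% and 17.5% of all genes). In embryoid bodies 2 were higher and 4 lower (19.4% and 17.8%). Krt7 itself is counted among the trophoblast markers called lower in each culture. Summed extraembryonic endoderm markers, 12 genes, were at 9.12 in WT and 25.5 to 31.6 in KO in pluripotent culture, 10.2 against 13.1 to 13.5 after LIF withdrawal and 16.4 against 12.8 to 13.6 in embryoid bodies. In pluripotent culture, where Krt8 was higher in KO, both lists held calls in either direction: 3 of 10 tested trophoblast markers were higher and 4 lower, and 3 of 7 tested endoderm markers were higher and 2 lower. Among all genes tested, 25.5% were called higher and 26.3% lower in that culture. Most of the KO endoderm sum there was Amn, at 1.78 in WT and 22.3 and 17.5 in KO, while Sox7 was at 1.92 in WT and 0.53 and 0.44 in KO. Of the trophoblast markers, Hand1 was at 0.70 in WT and 12.4 and 10.12 in KO, and Tfap2c at 15.9 in WT and 2.34 and 4.60 in KO. Amn, Sox7, Hand1 and Tfap2c, like Eomes and Tead4 above, were chosen after their values were seen. The sum of 8 mesoderm markers was 2.02 in WT and 3.07 to 3.89 in KO in pluripotent culture, 26.4 against 2.15 to 2.19 after LIF withdrawal, and 32.4 against 1.99 to 2.25 in embryoid bodies. The high WT sums were mostly T and Msx1, while Kdr was at 0.15 in WT and 0.98 and 0.68 in KO after LIF withdrawal. The sum of 8 surface ectoderm markers was 7.90 in WT and 2.54 to 2.78 in KO in pluripotent culture, 13.8 against 4.31 to 4.67 after LIF withdrawal, with Trp63 listed at 0 in that WT library, and 7.08 against 2.97 to 3.49 in embryoid bodies. Dlx3 was the largest term of these WT sums, at 4.76 in WT and 0.22 and 0.30 in KO in pluripotent culture. Gata3 went the other way there, at 0.20 in WT and 0.74 and 0.87 in KO. Both were chosen after their values were seen, and Gata3 and Tfap2a are also trophoblast markers listed above. Only 3 of the 8 were tested, with 1 called higher and 1 lower in pluripotent culture. After LIF withdrawal 0 were higher and 2 lower, and in embryoid bodies 0 and 1. The part of such cells in the results was not tested.

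Across the 9 libraries, the 45 pairs among the 10 genes had Pearson correlations of log2 CPM from -0.35 to 0.99, with a median of 0.60. These correlations describe 9 libraries that share cultures and genotypes. The closest pair was Krt18 and Cldn6 (r = 0.99), a keratin and a claudin on different chromosomes, while Krt18 and its partner Krt8 are not among each other's 3 most alike genes. Among 11974 genes at a mean of 1 FPKM or more, the gene most like both Krt18 and Cldn6 was Bspry (r = 0.99 for each), and Crb3 came next for Cldn6 (0.99). Fam53b was most alike for Krt7 (0.99) and Cldn7 (0.98), and Ap1m2, a sorting adaptor subunit of polarised epithelia, was the third for Cldn7 (0.97). Krt19 was most like Pdgfb (0.98), Cdh1 most like Kif1a (0.99) and Epcam most like Bin1 (0.996). The nearest genes of Krt8 were Vrk2 (0.97), Tpbg (0.97) and Igbp1 (0.96), those of Cldn4 began with Naxd (0.99), and those of Cldn3 with Zfp946 (0.94) and held Marveld2, a tight junction protein, in the third place (0.91).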

How the data were processed

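RNA-seq of 9 libraries in 6 groups, 1 WT and 2 KO in each of 3 cultures, was analysed, with groups taken from the labels. The submitters' processing notes name the aligner Bowtie2 and the genome build mm8; quantifier, strandedness and annotation are not given in the sources used here. Per the file headers, the deposited tables hold an expected count (estimated, so at times fractional) and a length-scaled FPKM for every gene. The deposited FPKM values were used for levels. A gene absent from a library's table was taken as 0. The deposited expected counts of the 10 genes were whole in all 9 libraries except for Krt19 (8 of 9) and Cdh1 (7 of 9), within 0.005. Of 20287 gene IDs, 20234 were matched to RefSeq names by ID, 9 by accession and 44 not at all.

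Expected counts were rounded and tested with edgeR 4.0.16 (R 4.3.3) in a quasi-likelihood test with TMM factors (0.94 to 1.04), over the 13990 genes whose FPKM averaged 0.5 or more, with Benjamini-Hochberg adjustment over all of them. Contrasts came from a fit with 6 group means (3 residual degrees of freedom, all from the 3 KO pairs, biological coefficient of variation 6.51%). The average over cultures came from an additive fit of culture and genotype (5 residual degrees of freedom, 18.1%), whose spread includes how the genotype difference varied between cultures. Standard errors are the log2 fold change over the root of F. The KO pairs differed beyond counting noise (chi-square per degree of freedom 2.88 to 4.37). The fit was tested on simulated data. Alternatives were DESeq2 1.42.0, its size factors, no filter, limma 3.58.1 on log2(FPKM + 1) and log2(FPKM + 0.1), a block, and leaving out libraries or cultures. The 10 genes, lists and markers were chosen with earlier results of these data known. Apart from Cgnl1 and Prkci, genes named from the partner lists were some of the tested genes of smallest p over the cultures or in pluripotent culture, and some of the fixed partners of the 10. Others so picked are left out, with levels higher (Nectin1, Nefl) or lower (Pkp2, Lad1) in KO in pluripotent culture. Promoters are those of RefSeq on GRCm38.p6, a build other than that of the files.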

Additional observations from a re-analysis of the deposited data

Results flagged for a closer look

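The following genes changed from pluripotent culture by different amounts in KO and WT, by the test of that difference (log2, KO response minus WT response, edgeR's quasi-likelihood test). After LIF withdrawal the difference was -3.68 for Krt8, -1.79 for Krt18, -1.19 for Krt19, -1.82 for Cldn3, -1.40 for Cldn4, -2.83 for Cldn6 and -2.85 for Cldn7. In embryoid bodies it was -3.41 for Krt8, -0.69 for Krt18, -1.33 for Cldn3, -1.18 for Cldn4, -1.03 for Cldn6, -1.85 for Cldn7 and 0.50 for Cdh1. Both sets use the same 3 libraries of pluripotent culture.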

How the results depend on the processing

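Over the 10 genes, 10 comparisons and all alternatives there were 1420 values, of which 1361 kept their direction and their side of the threshold, 35 lost a call, 13 gained one and 11 turned direction. The values that turned were all uncalled: Cldn4 over the cultures (-0.17 without the WT library of pluripotent culture and -0.17 without all libraries of that culture; range -0.17 to 0.48 with 1 library left out), Krt7 in KO after LIF withdrawal (0.45 without KO 2 of pluripotent culture, 0.26 without KO 1 of LIF withdrawal; range -0.64 to 0.45) and in KO embryoid bodies (0.42 without KO 2 of pluripotent culture, 0.25 without KO 1 of the embryoid bodies; range -0.66 to 0.42), and, in KO embryoid bodies, Cldn3 (0.012 and 0.021 with limma on log2(FPKM + 1) and log2(FPKM + 0.1), 0.26 without KO 2 of pluripotent culture, 0.02 without KO 1 of the embryoid bodies; range -0.43 to 0.26) and Cldn4 (-0.048 without KO 2 of pluripotent culture). The cause was not tested.

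The number of all genes called over the cultures was 3787, with a range of 2544 to 5896 when 1 library was left out, the highest being that without the WT library of pluripotent culture. Leaving out that library takes pluripotent culture out of the genotype difference. The number was 1524 without the LIF withdrawal libraries. DESeq2 called 4214 genes over the cultures, more than edgeR, and fewer in the other 9 comparisons, by over 1.5 times in 7 of them: 4792 against 7248 for KO versus WT in pluripotent culture, 2840 against 5011 after LIF withdrawal, 2889 against 5204 in embryoid bodies, 1228 against 2867 and 2929 against 5400 for the WT responses, and 2374 against 4528 and 3284 against 5857 for the differences between responses, each in the order LIF withdrawal and embryoid bodies. Of the 10 genes, 7 were called over the cultures, and 7 to 9 with 1 library left out. After LIF withdrawal, 9 were called in KO versus WT without each of the 8 libraries that could be left out; the WT library of that culture could not. For each difference between responses DESeq2 called 5 of the 10 genes, against 7.

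KO libraries share replicate numbers, but same-numbered deviations correlated at 0.21, 0.05 and 0.07 between cultures, so the numbers were not taken as pairs. With a replicate block, 10 of the 10 genes were called after LIF withdrawal (Cldn4 at -0.28, adjusted p 0.0395), 9 in embryoid bodies (Cldn3 at -0.71, adjusted p 0.0304), and Krt19 was called lower in KO embryoid bodies than in KO pluripotent culture (-0.54, adjusted p 0.0232); it changed no other call among the 10 genes. The chief limits are the single WT library of each culture, the few KO counts behind Krt7 (2 or 4 per library) and the unknown origin of the KO libraries.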
